A study of Mus musculus with 12 samples.

Results

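The genes described here are those of the molybdenum enzymes and of the pathway that makes their cofactor. They are *Aox3*, *Aox1*, *Xdh*, *Suox*, *Mocs1*, *Mocs2*, *Mocos* and *Gphn*, and they were taken by name as 8 of the 54232 rows of a table of liver RNA-seq counts. All 8 passed the filter on low counts, above 2 reads in 6 livers or more, and so belonged to the 17509 genes tested. The list was chosen by its counts in these same libraries, with the LKO against WT difference already known, so the fold changes of these 8 genes, their intervals and their place in the fit over all genes are given as a description that supports nothing by itself.

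The study compared livers of 6 wildtype (WT) and 6 liver-specific *Marchf6* knockout (LKO) mice, with 1 library per mouse. MARCHF6 is a ubiquitin ligase of the endoplasmic reticulum that marks proteins for degradation, among them squalene epoxidase of sterol synthesis. All mice were male C57Bl/6J littermates of 10 weeks on chow, fasted for 4 h before sacrifice, and both groups carried the floxed *Marchf6* allele (*Marchf6* fl/fl). LKO mice also carried AlbuminCre, a Cre recombinase under the hepatocyte albumin promoter, and WT mice lacked the Cre. The study describes the deletion as specific to hepatocytes, and these counts do not show the state of the allele in other liver cells. Every WT library had a lower library number than every LKO library, so the order of the libraries and the genotype cannot be told apart.

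Molybdenum works in mammalian enzymes only when bound to a pterin, the molybdenum cofactor. MOCS1 and MOCS2 build the pterin from GTP, gephyrin (*Gphn*) inserts the metal, and MOCOS adds a sulfur atom that aldehyde oxidases and xanthine dehydrogenase need and sulfite oxidase does not. Aldehyde oxidases (*Aox1*, *Aox3*) oxidize aldehydes and nitrogen heterocycles, among them many drugs, xanthine dehydrogenase (*Xdh*) makes uric acid from purines, and sulfite oxidase (*Suox*) detoxifies the sulfite left by cysteine breakdown. Rodent liver is known for several aldehyde oxidase genes that lie side by side, whereas the human genome keeps a single working one.

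*Aox3* (ENSMUSG00000064294) and *Aox1* (ENSMUSG00000063558) lie on the plus strand of chromosome 1 in GRCm38, at 58113130 to 58200698 and at 58029931 to 58106413, so that *Aox1* ends upstream of *Aox3*, at a distance of −6.717 kb. Their promoters are shown because the difference between the genotypes was large for the first gene and near 0 for the second. Each RefSeq sequence (GRCm38.p6, plus strand) runs from 250 bases before the annotated start to 50 bases after it. Capitals mark matches to the motifs searched.
*Aox3*, chr1:58112886-58113185: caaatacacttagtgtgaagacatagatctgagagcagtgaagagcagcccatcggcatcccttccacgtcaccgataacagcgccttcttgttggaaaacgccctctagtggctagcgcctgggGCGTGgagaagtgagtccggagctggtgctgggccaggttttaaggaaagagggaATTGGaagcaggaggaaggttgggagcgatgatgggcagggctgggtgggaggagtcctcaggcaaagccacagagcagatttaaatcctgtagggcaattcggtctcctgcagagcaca
*Aox1*, chr1:58029719-58030018: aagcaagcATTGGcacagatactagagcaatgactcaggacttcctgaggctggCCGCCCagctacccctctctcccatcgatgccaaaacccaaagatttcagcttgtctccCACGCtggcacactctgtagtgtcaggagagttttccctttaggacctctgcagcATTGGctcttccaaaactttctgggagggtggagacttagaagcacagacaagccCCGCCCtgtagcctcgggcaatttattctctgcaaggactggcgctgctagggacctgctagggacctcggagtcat

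The motifs were searched on both strands and did not overlap each other in these promoters. The *Aox3* promoter held the xenobiotic response element core GCGTG once, at −125 relative to the start, and the CCAAT box once, on the minus strand and therefore printed as ATTGG, at −70. The *Aox1* promoter held GCGTG once, the GC box GGGCGG at 2 places and CCAAT at 2 places, all on the minus strand. Of 32851 promoters of the same length, 32.4% held GCGTG, 37.4% held CCAAT and 35.7% held GGGCGG. The antioxidant response element core TGACNNNGC (in 12.4% of all promoters), the TATA box TATAAA (13.6%), the E-box CACGTG (7.15%), the nuclear receptor half-site AGGTCA (16.3%) and the sterol regulatory element TCACNCCAC (1.24%) were not in these letters of either promoter. A match is a description of the letters and not of a bound site. Of the 8 genes, 6 had a promoter in the table used, and *Xdh* and *Mocos* did not.

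*Aox3* and *Aox1* had few long stretches in common that reads could share. Their coding sequences, of 4005 and 3999 nt in 35 exons each, were identical at 67.2% of 3972 aligned positions. The longest identical stretch was 20 nt, at coding positions 160 to 179 of *Aox3* and 148 to 167 of *Aox1*. It is shown as the longest exact match: gcctgcacagtgatgatctc. None of the 50-nt words in the transcripts of the 8 genes was shared with another of them or with *Aox2* and *Aox4*, the remaining genes of the cluster. *Gphn* overlapped Gm48226, a noncoding gene of the opposite strand, by 147 nt, and the strand setting of the counting is not given in the sources used here.

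*Aox3* was the most abundant of the 8 genes and the one with the largest difference. As normalized CPM (reads scaled to library size after TMM normalization), its level was 1110, 737, 552, 852, 883 and 778 in WT livers 1 to 6. In LKO livers 1 to 6 it was 349, 459, 444, 439, 295 and 295. Every LKO liver lay below every WT liver, the nearest being WT3 and LKO2. WT livers averaged 819 ± 184 and LKO livers 380 ± 76.2 (SD, n = 6 each), and the fitted log2 fold change was −1.11, with a standard error of 0.158 and a 95% interval from −1.45 to −0.77. These values rest on 5465 to 16881 reads per liver. In bulk liver, fewer cells that express a gene and less RNA of it per cell cannot be told apart.

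*Aox1*, the neighbouring aldehyde oxidase gene, had nearly the same level in both groups. Its normalized CPM were 93.7, 72.5, 81.0, 84.5, 102 and 97.6 in WT livers 1 to 6 and 84.4, 80.2, 85.9, 102, 101 and 75.1 in LKO livers 1 to 6. The groups overlapped over almost their whole range. WT livers averaged 88.6 ± 11.2 and LKO livers 88.2 ± 11.1 (SD, n = 6 each), with a log2 fold change of −0.01 and a 95% interval from −0.22 to 0.20.

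*Xdh* had the next largest difference. Its normalized CPM were 184, 187, 214, 198, 241 and 173 in WT livers 1 to 6 and 145, 169, 152, 181, 182 and 189 in LKO livers 1 to 6. All 6 LKO livers lay below the WT mean and 3 lay below the lowest WT liver, so the groups overlapped. WT livers averaged 199 ± 24.5 and LKO livers 170 ± 17.8 (SD, n = 6 each), which gave a fold change of −0.23 on the log2 scale with a 95% interval from −0.42 to −0.04. *Suox*, the enzyme that does not need the sulfur added by MOCOS, ranged from 110 to 131 in WT and from 107 to 139 in LKO livers, with a log2 fold change of −0.01 (95% interval −0.16 to 0.15).

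The 4 genes of cofactor synthesis overlapped between the genotypes. *Mocs1*, which acts at the first step, averaged 127 ± 13.2 normalized CPM in WT and 121 ± 10.2 in LKO livers (SD, n = 6 each), and its log2 fold change was −0.07 (95% interval −0.24 to 0.10). *Mocs2*, whose products add the sulfurs that bind the metal, averaged 88.6 ± 10.1 and 89.1 ± 2.42, a log2 fold change of 0.01 (95% interval −0.15 to 0.16). The LKO livers were closer together for *Mocs2*, from 87.2 to 93.04, than the WT livers, from 72.4 to 100.2. *Mocos* ranged from 52.7 to 56.5 in WT and from 51.7 to 60.8 in LKO livers, with a log2 fold change of 0.04 (95% interval −0.08 to 0.16). *Gphn* averaged 92.2 ± 9.81 and 83.9 ± 11.5, a log2 fold change of −0.14 (95% interval −0.35 to 0.08), and its lowest value, 61.7, was that of LKO1.

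Of the 8 genes, 1 (*Aox3*, lower) passed the threshold of 0.05 on the adjusted p-value from edgeR's quasi-likelihood test, as did 0.428% of all genes tested, 0.154% lower and 0.274% higher in LKO livers. The livers of the genotypes did not overlap for 1 of the 8 genes and for 1.3% of all genes tested, and LKO livers were the lower ones for 0.554% of all genes. As these 8 genes were picked with this contrast known, nothing is read from their count. The fitted level was lower in LKO livers for 6 of the 8, and the median log2 fold change was −0.04, beside 0.00015 over all genes tested.

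**Figure D1:**
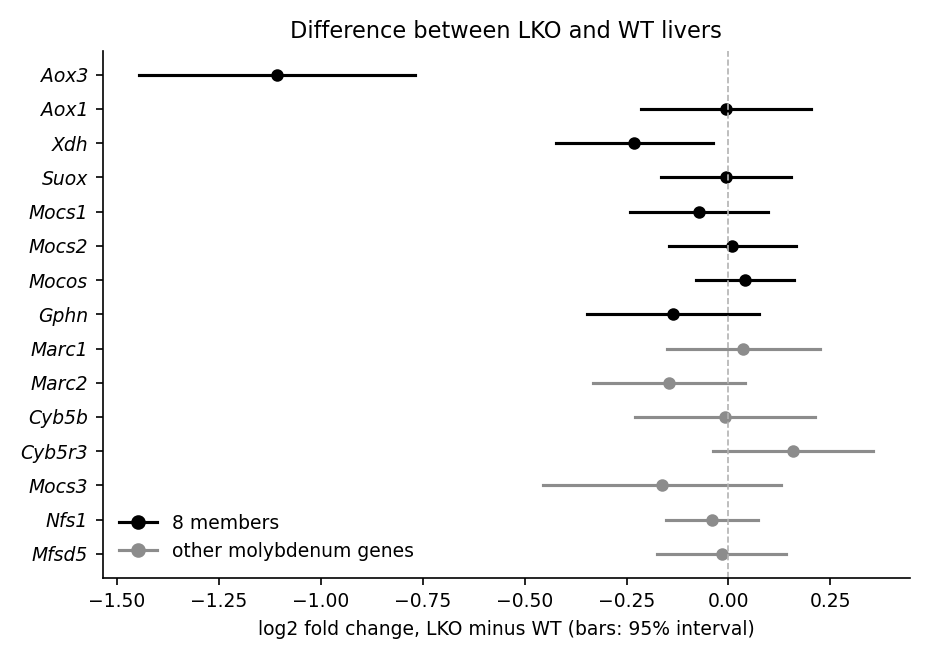
Fitted log2 fold change (LKO minus WT, points) with its 95% interval (bars) for the 8 genes in black and 7 other tested molybdenum genes in grey. *Aox3*, at −1.11, stands apart from the rest, which lie between −0.23 and 0.16.

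To compare the levels of different genes, reads were divided by the length of each gene's merged exons (RPKM). In WT livers the order was *Aox3* (116 ± 26.2, SD, n = 6), *Suox* (48.4), *Mocs1* (40.8), *Gphn* (24.6), *Xdh* (21.7), *Mocos* (17.0), *Aox1* (10.2) and *Mocs2* (9.78). The same order held in LKO livers, from 54.0 ± 10.8 (SD, n = 6) for *Aox3* to 9.84 for *Mocs2*. The WT livers separated *Aox3*, at 78.4 RPKM or more, from *Suox*, at 52.5 or less. In LKO livers these genes overlapped, with *Aox3* from 42.0 to 65.2 and *Suox* from 42.9 to 55.8. *Suox* overlapped *Mocs1*, *Gphn* overlapped *Xdh*, and *Aox1* overlapped *Mocs2* in both groups, so the order within these pairs is not beyond the spread between livers. In LKO livers *Aox3* also overlapped *Mocs1*, and *Mocos* overlapped *Xdh* and *Gphn*. The order depends on the length used. With the longest transcript in place of merged exons, an alternative chosen after seeing the data, the mean of *Mocs2* (4559 nt instead of 9054 nt) was 19.4 RPKM in WT and 19.5 in LKO livers. These means lay above those of *Mocos* and *Aox1*. By that length *Mocs2* overlapped *Mocos* in both groups, *Aox1* in WT livers, and *Xdh* and *Gphn* in LKO livers. By that length *Aox3* stayed above *Suox* also in LKO livers, at 64.1 RPKM or more against 55.8 or less.

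**Figure D2:**
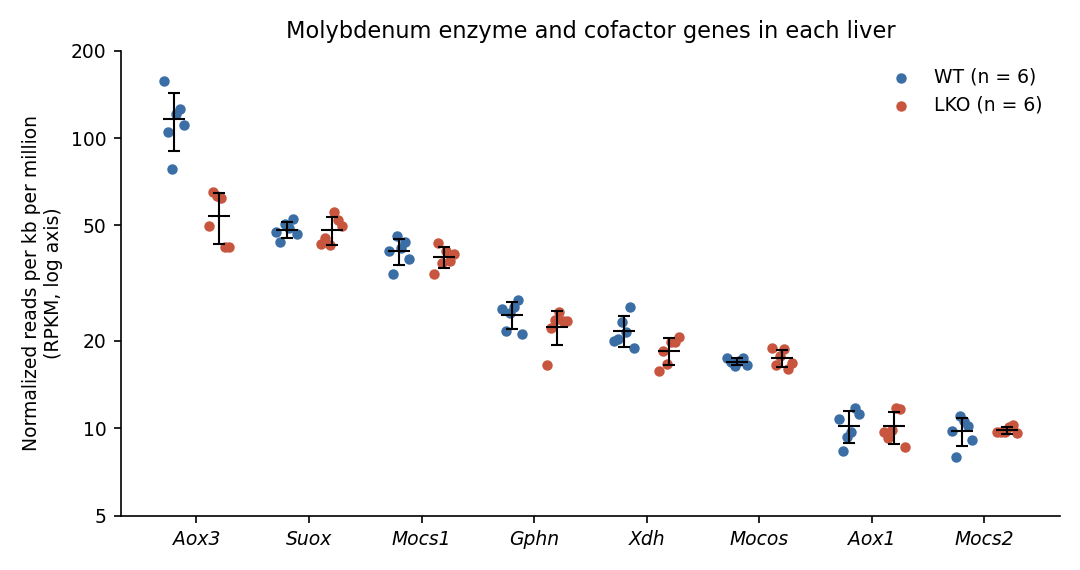
Library-scaled reads per kb of merged exon (RPKM, log axis) of each gene in every liver, with the mean and SD of 6 livers as black bars. WT livers are blue and LKO livers red, and the groups are apart for *Aox3* and overlap for the other 7 genes.

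*Aox3* and *Aox1* together gave the aldehyde oxidase transcript of these livers, since *Aox4* had at most 1 read and *Aox2* at most 3 reads in any liver. Their summed level was 127 ± 26.9 RPKM (SD, n = 6; 87.8 to 169) in WT and 64.2 ± 11.0 RPKM (SD, n = 6; 50.6 to 74.4) in LKO livers, and the groups did not overlap. *Aox3* made up 91.7% ± 1.52 (SD, n = 6; 89.4% to 93.6%) of the sum in WT and 83.8% ± 3.23 (SD, n = 6; 78.3% to 87.6%) in LKO livers. The ratio of *Aox3* to *Aox1* RPKM was 11.4 ± 2.23 in WT and 5.39 ± 1.21 in LKO livers (SD, n = 6 each). These values derive from the contrast by which the genes were chosen and carry no test.

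**Figure D3:**
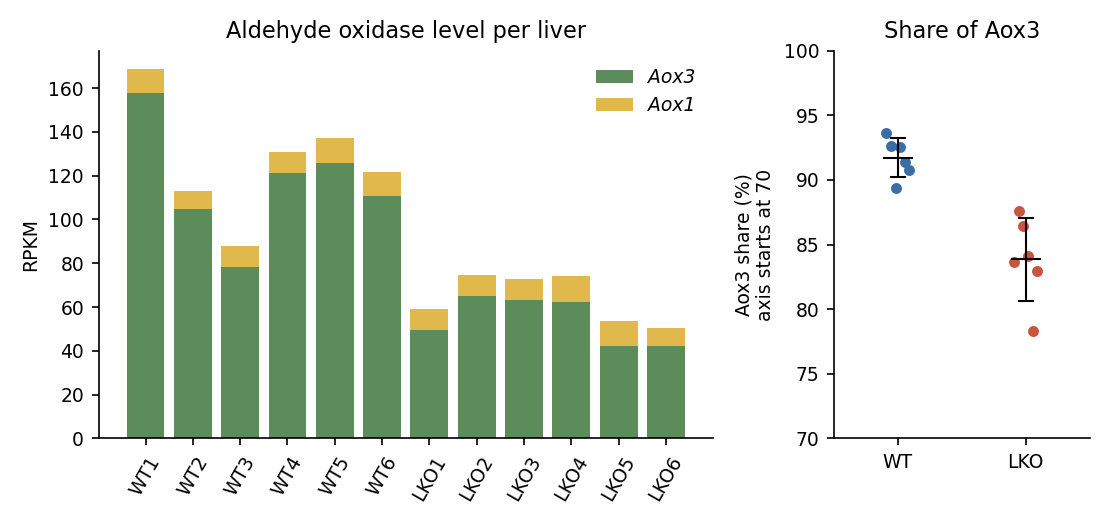
Left, RPKM of *Aox3* (green) and *Aox1* (yellow) stacked for each liver; right, the share of *Aox3* in the sum per liver with mean and SD (n = 6), on an axis that starts at 70%. The yellow part is similar in all livers, and the sum is 87.8 RPKM or more in WT and 74.4 RPKM or less in LKO livers.

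Other molybdenum genes were compared next, from a list of 9 of which 7 were tested. None passed the threshold by edgeR, limma voom or DESeq2, and none had an unadjusted p-value under 0.05. The mARC enzymes, which reduce N-hydroxylated compounds at the outer mitochondrial membrane, had means of 509 and 522 normalized CPM in WT and LKO livers for *Marc1* and of 354 and 320 for *Marc2*. Their electron carriers had log2 fold changes of −0.01 for *Cyb5b* and 0.16 for *Cyb5r3*. For *Mocs3* and *Nfs1*, which supply sulfur to MOCS2, the log2 fold changes were −0.16 and −0.04, and *Mfsd5*, a molybdate transporter, stood at −0.02. Adjusted p-values of the 7 genes by edgeR's quasi-likelihood test ran from 0.532 to 0.988.

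The genes around *Aox3* on chromosome 1 were compared to see how far the difference extended along the chromosome. Within 500 kb of its ends lie 14 other protein-coding genes, of which 11 were tested, *Aox1* included. None of the 11 passed the threshold by edgeR, limma voom or DESeq2, none had an unadjusted p-value under 0.05, and for none did the livers of the genotypes stay apart. Apart from *Aox1*, the nearest tested gene on each side was *Sgo2a*, at −87.2 kb (negative being upstream), which had 3 reads or fewer in each liver, and *Bzw1*, a translation regulator, at 192 kb. *Bzw1* averaged 146 ± 8.80 normalized CPM in WT and 140 ± 14.8 in LKO livers (SD, n = 6 each), and its log2 fold change was −0.06 (adjusted p = 0.796 by edgeR's quasi-likelihood test). The log2 fold changes of the 11 genes ran from −0.45 for *Sgo2a* to 0.20 for *Spats2l*.

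**Figure D4:**
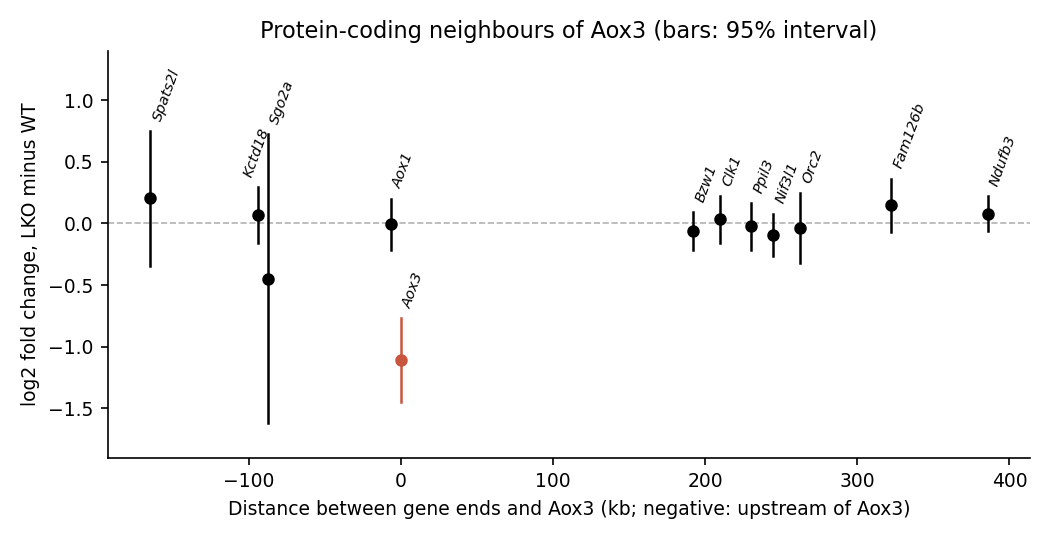
Log2 fold change (LKO minus WT) with its 95% interval for *Aox3* (red) and the 11 tested protein-coding genes within 500 kb (black), against the distance between gene ends in kb, negative upstream. *Aox3* lies at −1.11, the other genes lie between −0.45 and 0.20, and the wide interval belongs to *Sgo2a*, with 3 reads or fewer.

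Pathways that meet the molybdenum enzymes were described from lists of their genes. Xanthine and aldehyde oxidases carry iron-sulfur clusters, and of 13 genes of cytosolic iron-sulfur assembly none passed the threshold by edgeR, limma voom or DESeq2, while 4 had an unadjusted p-value under 0.05, as did 11.7% of all genes tested. *Ciapin1*, an electron donor of the pathway, had a log2 fold change of 0.22 (adjusted p = 0.311 by edgeR). The median log2 fold change of the list was 0.06.

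Purine breakdown leads to *Xdh*. Of 12 genes, 11 were tested and *Allc* had 0 reads. None passed by edgeR or limma voom, and 1 passed by DESeq2, which called 351 of all 17509 genes tested. By edgeR, 3 had an unadjusted p-value under 0.05 (11.7% of all genes). *Hprt*, which returns hypoxanthine to the nucleotide pool, averaged 56.2 ± 4.32 normalized CPM in WT and 65.5 ± 3.57 in LKO livers (SD, n = 6 each), and its log2 fold change was 0.22 (adjusted p = 0.164 by edgeR). The livers of the genotypes did not overlap for *Hprt*, as for 1.3% of all genes tested. *Nt5c2*, a purine nucleotidase, stood at 0.21 (adjusted p = 0.297 by edgeR).

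Cysteine breakdown supplies the sulfite for *Suox*. Of 12 genes none passed by any of the 3 tools, and 1 had an unadjusted p-value under 0.05 by edgeR (11.7% of all genes). *Slc26a1*, a sulfate transporter, averaged 210 ± 30.0 and 165 ± 24.5 normalized CPM (SD, n = 6 each), and its log2 fold change was −0.35 (adjusted p = 0.230 by edgeR). *Csad*, an enzyme of taurine synthesis, stood at 0.48 (adjusted p = 0.449 by edgeR).

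Some aldehyde dehydrogenases and reductases share aldehyde substrates with the aldehyde oxidases, though not every gene of this list acts on them. Of 19 genes none passed by edgeR or limma voom, and 1 passed by DESeq2, which called 351 of all 17509 genes tested. By edgeR, 6 had an unadjusted p-value under 0.05 (11.7% of all genes). *Akr1c6*, a hydroxysteroid dehydrogenase, averaged 959 ± 102 and 778 ± 66.4 normalized CPM (SD, n = 6 each), and its log2 fold change was −0.30 (adjusted p = 0.145 by edgeR). *Cbr1*, a carbonyl reductase, stood at 0.34 (adjusted p = 0.234 by edgeR).

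Aldehyde oxidases also oxidize N1-methylnicotinamide, the product of *Nnmt*. Of 11 nicotinamide and NAD genes none passed by the 3 tools, and 2 had an unadjusted p-value under 0.05 by edgeR (11.7% of all genes). *Nnmt* averaged 129 ± 22.0 normalized CPM in WT and 84.3 ± 41.3 in LKO livers (SD, n = 6 each), and its log2 fold change was −0.61 (adjusted p = 0.347 by edgeR). *Nadk2*, the mitochondrial NAD kinase, stood at −0.21 (adjusted p = 0.382 by edgeR).

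**Figure D5:**
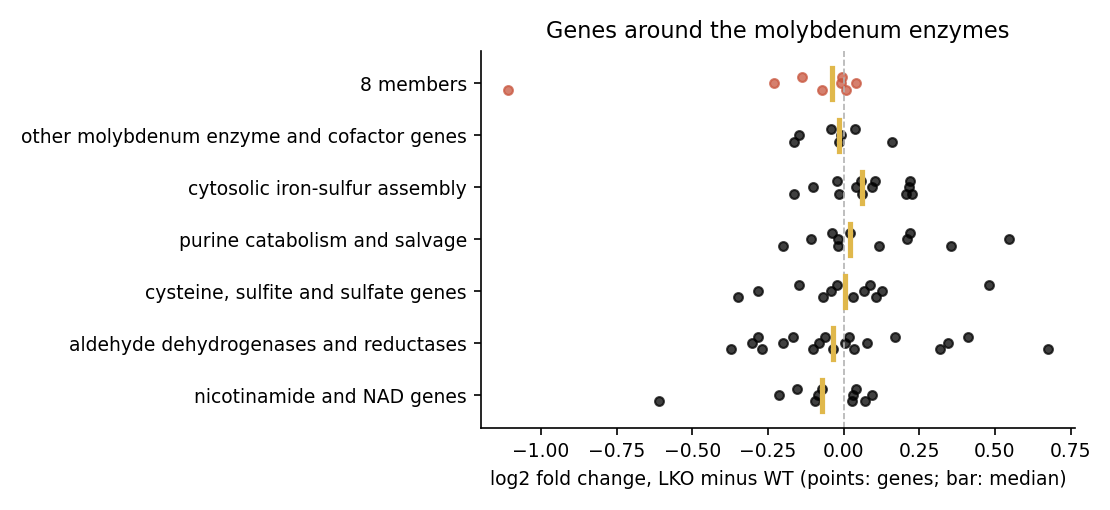
Log2 fold change (LKO minus WT) of each tested gene of a list (points; vertical offsets only separate them) and the median (yellow bar). The list medians lie between −0.07 and 0.06, and *Aox3* is the point farthest from 0.

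How the 8 genes varied from liver to liver was described by Pearson's r of log2 CPM over the 12 livers, after the mean of each genotype was subtracted. Of 28 pairs 20 had an r above 0, with a median of 0.32, and all values come from the same libraries. Pairs drawn from all genes tested were not computed, so nothing is read from this count. The pairs most alike were *Xdh* with *Suox* (0.80), *Mocs1* with *Mocs2* (0.74) and *Xdh* with *Gphn* (0.71). The second of these rested on the WT livers, with 0.97 in WT and 0.03 in LKO livers. *Aox3* was most like *Mocos* (0.47) and *Aox1* (0.31), and least like *Xdh* (−0.27). By genotype, r with *Mocos* was 0.84 in WT and 0.38 in LKO livers. With *Aox1* it was 0.52 and 0.07, and with *Xdh* −0.19 and −0.37. Among 12774 genes with a mean of at least 1 CPM, those most like *Aox3* were Gm7935 (0.90), *Ptprf* (0.90), *Mx2* (0.89), Gm15998 (0.88) and *Zbtb33* (0.87). As the highest of 12774 values over 12 livers, these can be large by selection alone, and a shared control was not tested. Gm7935 and Gm15998 were near the floor, at 1.37 and 1.82 normalized CPM in WT livers.

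The libraries held 14860414 to 22111926 reads on genes. The whole-gene count of *Marchf6* averaged 241 ± 8.36 normalized CPM in WT and 226 ± 16.5 in LKO livers (SD, n = 6 each), and its log2 fold change was −0.09 (adjusted p = 0.585 by edgeR's quasi-likelihood test), and since the deletion removes 1 exon it does not check the genotype. Hepatocyte markers were high in all livers, with a summed level of 103550 to 127190 CPM in WT and 96365 to 106230 in LKO livers, and 0 of 9 passed the threshold by edgeR. Of these 9, 7 were fitted lower and 2 had an unadjusted p-value under 0.05, as did 11.7% of all genes tested. The summed level of 8 Kupffer cell markers was 101 to 132 CPM in WT and 128 to 220 in LKO livers, with all 8 fitted higher, 7 at an unadjusted p-value under 0.05 and 0 past the threshold by edgeR. For 8 stellate cell markers it was 201 to 305 and 245 to 351, with all 8 fitted higher, 2 at an unadjusted p-value under 0.05 and 0 past the threshold by edgeR. It was 174 to 232 and 186 to 231 for 8 endothelial markers, 7 of them fitted higher, and 37.0 to 63.9 and 34.2 to 129 for 6 cholangiocyte markers, 4 of them fitted higher. Of 6 B-cell markers *Ighm* was lower in LKO livers (log2 fold change −1.78, adjusted p = 4.06e-06 by edgeR), the other 5 were fitted higher, and the sum was 15.6 to 23.8 and 6.21 to 9.00. None of these markers was at 0 reads in all livers, and the part of other cell types in the level of *Aox3* was not tested.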

How the data were processed

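Messenger RNA libraries of liver were made with a KAPA mRNA HyperPrep kit and sequenced on an Illumina instrument. By the submitters' processing notes, the authors used FastQC 0.11.15 for quality control, Trimmomatic 0.36 for trimming, HISAT2 2.1.0 for alignment to GRCm38.p6 and HTSeq 0.6.1 for counting. The deposited table holds unnormalized, unfiltered counts for each Ensembl identifier. The multimapping and strand settings are not given in the sources used here. The sources name both exon 2 and the third exon as the deleted exon of *Marchf6*.

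A gene was kept if its count exceeded 2 in 6 livers or more, following the study. After TMM scaling, edgeR 4.0.16 (R 4.3.3) fitted genotype alone by quasi-likelihood, and p-values were adjusted by Benjamini-Hochberg over 17509 genes. The 95% intervals were derived from F statistics. A prior count of 0.5 was added for log2 CPM. GENCODE M21 gave positions and merged exon lengths, and held 54079 of the 54232 identifiers. The tests were first checked on simulated data. The members and lists were chosen with earlier results of these data known. Named genes were all members, *Marchf6*, the other molybdenum genes, the 2 genes of lowest p of every other list (or those past the threshold), the nearest tested neighbours, and the 5 genes most like *Aox3*. A gene that this rule names is not reported here. *Spats2l*, *Allc* and Gm48226 were named after their values were seen. Marker lists are given as sums.

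Alternatives were RLE scaling, no filter, at least 10 reads in 6 livers, limma voom 3.58.1 (the study's test), DESeq2 1.42.0, scaling without the 20 most abundant genes, the replicate number as a block, and each liver left out. Each library is 1 mouse, so p-values set the difference between the groups against the spread between mice. No molecular identifiers are named in the sources used here, so depth describes counting error only.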

Additional observations from a re-analysis of the deposited data

Results flagged for a closer look

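In LKO livers, *Gphn* was lowest in LKO1, at 61.7 normalized CPM, and the next liver was at 83.0. This gap is 0.648 of the range of the 6 livers, above Dixon's critical value for 6 values. Among 20 groups of 6 livers searched 1 exceeded the critical value, and chance gives 1.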

How the results depend on the processing

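The log2 fold change of *Aox3* was −1.20 to −1.001 when 1 liver was left out and −1.11 to −1.09 otherwise. All 19 alternatives use the libraries by which the gene was chosen, so this range describes the value and is no support for it. The fitted sign changed under 8 alternatives for *Aox1*, 6 for *Suox* and 3 for *Mocs2*, whose values lie near 0, and under none for the other 5 members. The number of all genes past the threshold was 75. It was 114 with no filter, 351 with DESeq2, and 38 (without WT5) to 132 (without WT3) when 1 liver was left out, and the cause was not tested. With the replicate block it was 97, and the block changed no count of members, lists or neighbours. Whether the replicate numbers pair the livers was not settled. The correlation of same-numbered livers ran from −0.18 to 0.29, and 4 of 12 livers correlated best with their own number. So few livers cannot exclude a pairing. DESeq2 called 1 gene of the purine list (*Hprt*, adjusted p = 0.0476) and 1 of the aldehyde list (*Akr1c6*, adjusted p = 0.0276). Leaving out 1 liver gave 0 to 1 genes of the aldehyde list, the 1 without WT3. Counts of the other lists and of the neighbours stayed at 0 under the alternatives run. The share of *Aox3* in WT livers was 90.0% from CPM instead of RPKM. Depth limits *Aox2*, *Aox4* and *Sgo2a*, each with 3 reads or fewer.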
